A study of Mus musculus with 15 samples.

Results

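The interferon stimulated genes described here are 40 mouse genes that were taken from the deposited expression table by their symbols. All 40 were found among the 17271 genes of the table. They were measured by RNA-seq in 15 mammary tumours of BALB/c mice. Every tumour is labelled p53-null, so no tumour labelled with intact p53 is there for comparison. Of the 4 models, 2208L is represented by 8 tumours, 2151R by 4, 2225L by 2 and T11 by 1. The titles mark 4 tumours of 2208L as PBS, 3 as 3day nt and 1 as ROSEN, and they mark replicates 3 and 4 of 2151R as NT2 and NT. In 2225L, the title of replicate 1 carries T-Vivo and a library number that begins with CP, and that of replicate 2 carries ROSEN. No title names an interferon or a compound that acts on interferon signalling. The title of replicate 2 of 2151R carries 53ca and that of replicate 1 a number in its place, and neither is explained, so a treatment of these tumours cannot be read from the labels. No label gives an age, or says whether the samples of a model came from separate animals, so the p-values measure the spread between these samples, which may be partly technical. In whole tumours, fewer cells of a type and less RNA per cell cannot be told apart.

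Interferons are secreted proteins that tell cells of infection or of misplaced nucleic acid. Type I interferons act through a receptor made of Ifnar1 and Ifnar2 and through a complex that holds Stat2 and Irf9 and binds the interferon-stimulated response element (ISRE). Interferon gamma, made mainly by T cells and natural killer cells, acts through a receptor of its own and the gamma-activated site (GAS). The genes that respond include the Ifit, Oas and Mx families, which bind viral RNA, lead to its cutting or trap virus particles. Others are the ubiquitin-like protein Isg15, the guanylate-binding proteins (Gbp), the immunity-related GTPases (IRG) and chemokines that attract T cells. Many of these genes respond to both kinds of interferon. In tumours, both the cancer cells and the immune cells around them can express these genes.

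The sequence just before a gene's start is where many transcription factors bind, so it is shown first for 8 genes on which the comparisons turn. The 8 are Ifit1, Isg15, Rsad2 and Bst2, the IRG genes Irgm1 and Igtp, and the Gbp genes Gbp2 and Gbp7. Of Ifit1, Isg15, Rsad2 and Bst2, only Ifit1 belongs to the type I class used below. Each line gives the 150 bases before the start site in RefSeq GRCm38.p6, written 5′ to 3′ on the strand of the gene. Capitals mark matches to the ISRE core, which is GAAA, 2 bases of any kind and GAAA again, or to the GAS letters TTCNNNGAA, where N is any base, on either strand.
Isg15 (chr4:156200819-156200968, minus strand): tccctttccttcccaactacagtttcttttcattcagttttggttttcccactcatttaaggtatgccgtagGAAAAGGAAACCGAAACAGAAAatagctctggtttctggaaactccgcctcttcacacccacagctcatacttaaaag
Ifit1 (chr19:34640739-34640888, plus strand): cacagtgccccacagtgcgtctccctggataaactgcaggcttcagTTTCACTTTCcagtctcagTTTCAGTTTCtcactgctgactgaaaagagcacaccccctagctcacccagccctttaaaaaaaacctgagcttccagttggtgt
Rsad2 (chr12:26456453-26456602, minus strand): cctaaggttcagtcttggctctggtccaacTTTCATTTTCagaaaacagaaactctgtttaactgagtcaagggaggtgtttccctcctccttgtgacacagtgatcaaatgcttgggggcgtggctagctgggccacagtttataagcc
Bst2 (chr8:71537473-71537622, minus strand): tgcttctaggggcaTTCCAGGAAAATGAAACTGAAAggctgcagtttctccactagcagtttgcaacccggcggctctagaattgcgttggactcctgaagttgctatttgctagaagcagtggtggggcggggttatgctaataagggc
Irgm1 (chr11:48871421-48871570, minus strand): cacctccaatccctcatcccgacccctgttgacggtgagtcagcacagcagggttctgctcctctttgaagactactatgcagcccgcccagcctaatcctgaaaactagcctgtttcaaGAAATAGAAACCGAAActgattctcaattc
Igtp (chr11:58199406-58199555, plus strand): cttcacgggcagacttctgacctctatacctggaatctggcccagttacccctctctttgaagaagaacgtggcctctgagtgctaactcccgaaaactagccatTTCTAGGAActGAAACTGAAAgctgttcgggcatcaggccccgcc
Gbp2 (chr3:142620513-142620662, plus strand): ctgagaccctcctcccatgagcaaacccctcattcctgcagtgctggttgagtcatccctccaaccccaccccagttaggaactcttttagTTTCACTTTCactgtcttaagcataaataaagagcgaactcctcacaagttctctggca
Gbp7 (chr3:142530186-142530335, plus strand): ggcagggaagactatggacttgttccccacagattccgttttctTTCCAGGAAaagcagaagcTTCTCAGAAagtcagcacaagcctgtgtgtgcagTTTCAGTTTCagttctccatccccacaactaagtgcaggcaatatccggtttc
Every gene shown here holds an ISRE core, so these genes do not stand for those without one, such as Ifi47, Cmpk2 and Samd9l. Isg15 holds 3 overlapping ISRE cores in 1 run of capitals, and Irgm1 holds 2. In Bst2, a GAS match runs into 2 overlapping ISRE cores. Igtp has a GAS match followed by an ISRE core, and Gbp7 has 2 GAS matches and 1 ISRE core on the opposite strand.

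Promoter windows of 300 bases, from 250 before the start to 50 after it, were given for 31 of the 40 genes and for 12100 genes of the table. The ISRE core stood in 17 of the 31 (54.8%, exact binomial 95% interval 36.0% to 72.7%) and in 3.88% of the 12100. GAS letters stood in 8 of the 31 (25.8%) and in 8.17% of the 12100. Among the 7 type I genes with a window (the Ifit and Oas genes other than Oas2), 4 held an ISRE core and 2 held GAS letters. All 3 Gbp genes and 3 of the 4 IRG genes held an ISRE core, the exception being Ifi47. Ifi47, Samd9l, Cxcl9, Cmpk2, Oasl1, Oasl2, Herc6, Parp12, Dtx3l, Ifi44, Xaf1 and Lgals3bp held neither set of letters in this window. A match describes letters in this window and does not show that a factor binds there.

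**Figure D1:**
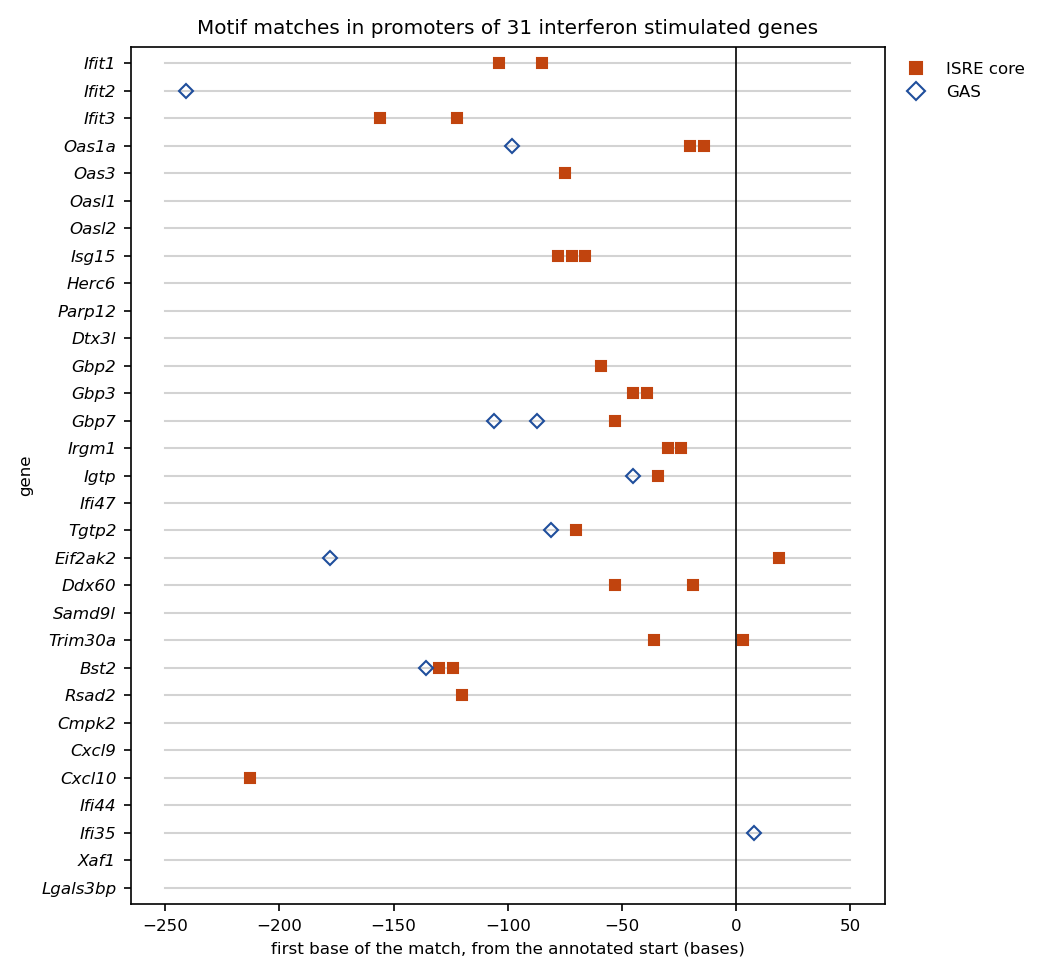
Positions of motif matches in the promoter windows of 31 interferon stimulated genes. The horizontal axis is the distance of the first base of a match from the annotated start in bases, each grey line is 1 gene's window, squares are ISRE cores and diamonds are GAS matches. Windows of genes with more than 1 annotated start are drawn over each other, and 17 of the 31 lines carry at least 1 square.

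By words in the table's name, the values are log2 and each gene was centred on a median, over samples that are not named. Read so, a difference of 1 between samples is about a factor of 2 for that gene, if no further scaling was done. The levels of different genes cannot be ranked against each other. The table holds no counts, so sequencing depth is unknown. In 34 of the 40 genes 2225L had the lowest mean of the 4 models, and in 27 of the 40 2208L had the highest. T11 had the highest mean in 7 genes and 2151R in 6. Replicate 1 of 2225L was the lowest of all 15 samples in 35 of the 40 genes. Replicate 2 of 2208L was the highest in 15 genes and replicate 7 of 2208L in 12. These orders were not counted over all genes. The models also differ in their number of tumours, and a mean of fewer tumours is more often extreme.

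Several features of the whole samples stand beside these values. The mean of 8 skeletal muscle genes, relative to its mean over the 15 samples, was 9.28 and 8.74 in replicates 6 and 8 of 2208L and 6.31 in replicate 3 of 2151R, against -5.34 to 1.74 in the other samples. Library numbers fall in separate ranges for 2151R and for the PBS and 3day nt tumours, so in these comparisons the model or subset cannot be told apart from the range. Of 8 epithelial marker genes, 7 were lower and 1 higher in 2151R than in 2208L, with a median difference of -6.06, although all samples are labelled as mammary tumour. Since each gene is centred, it cannot be read whether such genes are absent.

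**Figure D2:**
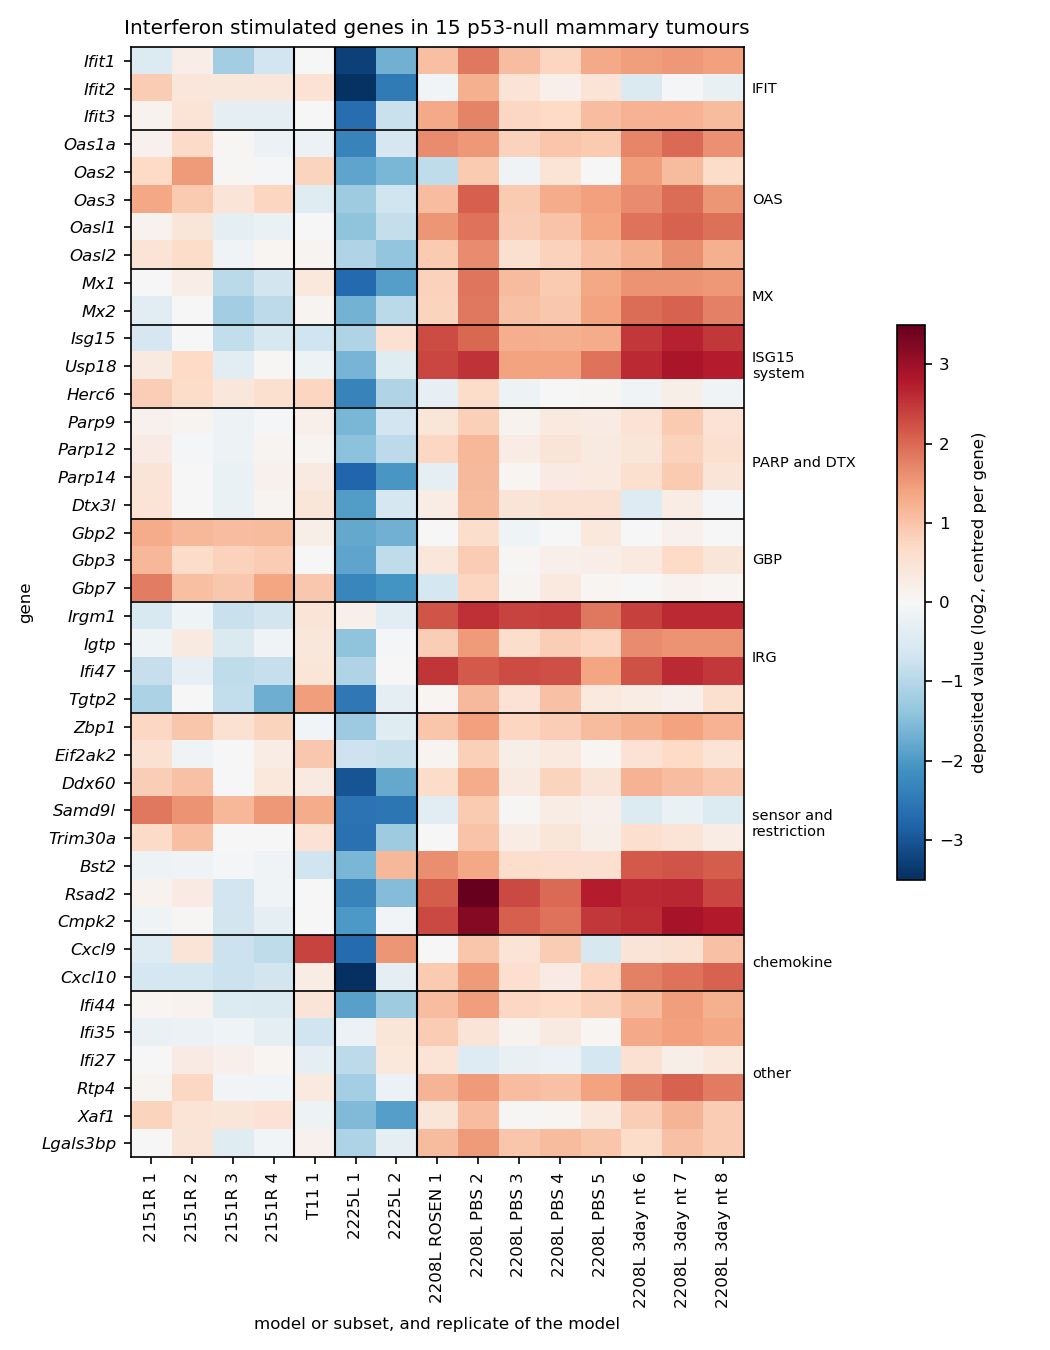
Deposited log2 values of the 40 genes (rows, grouped by family or role) in the 15 tumours (columns, by model and replicate), with red above and blue below each gene's own reference. Values beyond the ends of the colour scale take the end colour. The 2 columns of 2225L are blue in most rows, the 8 of 2208L are red in most rows, and the Gbp rows and the Samd9l row are red in 2151R.

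Between 2151R and 2208L the interferon stimulated genes differed by family. Most of the genes were lower in 2151R, but the Gbp genes and Samd9l stood on the other side. Of the 40, 23 were lower in 2151R and 4 were higher (Gbp2, Gbp7, Samd9l and Herc6) (limma, Benjamini-Hochberg adjusted over all genes, p under 0.05). Over all 17271 genes, 22.7% were lower and 26.1% higher. The median difference of the 40 was -0.93, beside 0.10 for all genes. In 20 of the 40, all samples of 2151R lay below all samples of 2208L (18.2% of all genes), and in 3 they lay above (20.6% of all genes).

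The Ifit genes encode proteins that bind viral RNA with foreign ends. Ifit1 was -0.49, 0.24, -1.21 and -0.68 in the 4 samples of 2151R, and ran from 0.75 over a median of 1.38 to 1.84 in the 8 samples of 2208L. The groups did not overlap, and the difference was -1.84 (SE 0.31, adjusted p 0.000292). Ifit3 was 0.12, 0.49, -0.32 and -0.31 in 2151R and 0.69 to 1.73 (median 1.17) in 2208L, a difference of -1.14 (SE 0.30, adjusted p 0.00711). Ifit2, which lies beside them on chr19 (Ifit2 at 34550550 to 34576534, Ifit3 at 34583119 to 34588982, Ifit1 at 34640889 to 34650009, GRCm38.p6), did not follow them. Its 2151R values were 0.90, 0.39, 0.39 and 0.40, inside the 2208L range of -0.52 to 1.25 (median 0.074). The difference of Ifit2 was 0.34 (SE 0.30, adjusted p 0.371), which does not show that the models are alike for it.

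Oas proteins make a messenger that activates an RNA-cutting enzyme, and the Oas-like proteins Oasl1 and Oasl2 are related to them. Of the 5 measured, 4 were lower in 2151R and Oas2 did not pass the test. Oasl1 was 0.14, 0.44, -0.30 and -0.23 in 2151R and 0.85 to 2.06 (median 1.73) in 2208L, a difference of -1.56 (SE 0.26, adjusted p 0.000211). Oas1a was 0.16, 0.68, 0.052 and -0.22 in 2151R and 0.81 to 1.97 (median 1.55) in 2208L, a difference of -1.22 (SE 0.32, adjusted p 0.00612). For both genes every sample of 2151R lay below every sample of 2208L. Oasl2 differed by -0.87 and Oas3 by -0.63, with overlapping groups. Oas2 was 0.69, 1.48, 0.043 and -0.072 in 2151R and -0.89 to 1.45 (median 0.56) in 2208L, so the groups overlapped, and its difference was 0.088 (SE 0.41, adjusted p 0.873).

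Mx proteins are GTPases that block viruses, and BALB/c is among the laboratory strains known to carry a defective Mx1. Both Mx genes were lower in 2151R without overlap. Mx2 was -0.39, 0.0028, -1.22 and -0.92 in 2151R and 0.79 to 2.05 (median 1.59) in 2208L, a difference of -2.11 (SE 0.30, adjusted p 6.7e-05). Mx1 was 0, 0.23, -0.95 and -0.63 in 2151R and 0.80 to 1.88 (median 1.43) in 2208L, a difference of -1.68 (SE 0.26, adjusted p 0.00016).

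Isg15 is a ubiquitin-like tag, Usp18 removes it and dampens the type I receptor, and Herc6 is the ligase that attaches it in mice. Isg15 was -0.58, -0.020, -0.86 and -0.56 in 2151R and 1.25 to 2.70 (median 2.14) in 2208L, a difference of -2.48 (SE 0.36, adjusted p 7.77e-05). Usp18 was 0.31, 0.71, -0.36 and 0.030 in 2151R and 1.41 to 2.86 (median 2.44) in 2208L, a difference of -2.05 (SE 0.34, adjusted p 0.000221). The tag and its protease were thus lower in 2151R with a clear gap between the groups. Herc6 was 0.86, 0.63, 0.40 and 0.55 in 2151R and -0.29 to 0.65 (median -0.057) in 2208L. Its difference of 0.59 (SE 0.23, adjusted p 0.0474) passed narrowly, with overlapping groups, and did not pass in 11 of the 12 fits that left out 1 sample.

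Rsad2, known as viperin, and Cmpk2, a nucleotide kinase, lie side by side on chr12 (Rsad2 at 26442743 to 26456452, Cmpk2 at 26469117 to 26479837) and work in the same antiviral chemistry. Rsad2 was 0.12, 0.29, -0.68 and -0.12 in 2151R and 1.97 to 3.51 (median 2.47) in 2208L, a difference of -2.63 (SE 0.28, adjusted p 4.86e-06). Cmpk2 was -0.14, 0.028, -0.65 and -0.32 in 2151R and 1.91 to 3.20 (median 2.52) in 2208L, a difference of -2.80 (SE 0.32, adjusted p 9.42e-06). These neighbours had nearly the same difference, and neither overlapped between the models. Bst2, known as tetherin, which holds virus particles at the cell surface, was also lower in 2151R. Its 2151R values were close together, at -0.18, -0.12, -0.074 and -0.14, while those of 2208L ran from 0.55 to 2.19 (median 1.49). The difference of Bst2 was -1.52 (SE 0.47, adjusted p 0.017).

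Among the other sensors and restriction factors, Samd9l was higher in 2151R and the rest did not pass. Samd9l encodes a cytoplasmic protein that restricts poxviruses and slows translation and growth. It was 1.85, 1.59, 1.15 and 1.53 in 2151R and -0.49 to 0.93 (median -0.093) in 2208L, a difference of 1.55 (SE 0.25, adjusted p 0.000175), the largest rise among the 40 in this comparison. Trim30a, a TRIM family protein, was 0.67, 1.06, 0 and -0.0088 in 2151R and 0.0060 to 0.99 in 2208L, a difference of 0.027 (SE 0.28, adjusted p 0.943). The nucleic acid sensors Zbp1 and Ddx60 and the RNA-activated kinase Eif2ak2 differed by -0.37, -0.27 and -0.24, and none of them passed the test.

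The Parp and Dtx3l genes encode enzymes of ADP-ribosylation and ubiquitination, of which Parp9 and Dtx3l work as a pair. All 4 were slightly lower in 2151R, and Parp12 alone passed the test. Parp12 was 0.29, -0.028, -0.17 and 0.091 in 2151R and 0.26 to 1.17 (median 0.52) in 2208L, a difference of -0.55 (SE 0.18, adjusted p 0.0234). It did not pass without replicate 2 or replicate 3 of 2151R. Parp9 was 0.16, 0.085, -0.19 and -0.029 in 2151R and 0.12 to 0.91 (median 0.46) in 2208L, a difference of -0.48 (SE 0.19, adjusted p 0.0517). The annotated spans of Parp9 (chr16, 35938470 to 35972621) and Dtx3l (chr16, 35926515 to 35939027) overlap, and the strand setting of the quantification is not given in the sources used here, so reads of the overlap cannot be told apart.

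The families of interferon-inducible GTPases went in opposite directions, as deposited and with either other scaling of the samples. Gbp proteins coat and break open the compartments of intracellular microbes, and IRG proteins act on the same compartments. Of the 3 Gbp genes, 2 were higher in 2151R and Gbp3 did not pass, and their median difference was 1.04. Gbp2 was 1.29, 1.16, 1.07 and 1.11 in 2151R and -0.14 to 0.62 (median 0.0081) in 2208L, a difference of 1.04 (SE 0.15, adjusted p 5.96e-05). Gbp7 was 1.80, 1.06, 0.95 and 1.37 in 2151R and -0.60 to 0.74 (median 0.086) in 2208L, a difference of 1.20 (SE 0.22, adjusted p 0.000573). Both were higher in every sample of 2151R than in any sample of 2208L. Gbp3 was 1.16, 0.63, 0.82 and 0.88 in 2151R and 0.051 to 0.88 in 2208L, a difference of 0.47 (SE 0.20, adjusted p 0.066). The 3 lie together on chr3 (Gbp7 at 142530336 to 142550151, Gbp3 at 142560016 to 142573213, Gbp2 at 142620663 to 142638008).

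All 4 IRG genes were lower in 2151R without overlap, with a median difference of -2.17. Ifi47 was -0.81, -0.29, -0.89 and -0.81 in 2151R and 1.39 to 2.61 (median 2.26) in 2208L, a difference of -2.93 (SE 0.24, adjusted p 4.26e-07). Irgm1, a regulator of the other IRG proteins, was -0.55, -0.16, -0.78 and -0.63 in 2151R and 1.83 to 2.61 (median 2.39) in 2208L, a difference of -2.90 (SE 0.18, adjusted p 2.08e-08). These are the largest falls of the 40 in this comparison. Tgtp2 differed by -1.44 and Igtp by -1.29. All 4 lie on chr11, with Irgm1 (48865245 to 48871420), Tgtp2 (49057196 to 49064212) and Ifi47 (49076587 to 49096987) close together and Igtp apart (58199556 to 58207592). Tgtp2 has a near-identical copy, Tgtp1, and how reads were shared between copies is not given in the sources used here, so the size of its difference is uncertain. The same holds for Ifit3 with Ifit3b and for Oas1a and the Gbp genes with their close paralogs.

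Cxcl10 and Cxcl9 are chemokines that draw T cells through the receptor Cxcr3. Cxcl10 was -0.63, -0.61, -0.76 and -0.65 in 2151R and 0.28 to 2.06 (median 1.20) in 2208L, a difference of -1.88 (SE 0.49, adjusted p 0.00647). Cxcl9, the more gamma-restricted of the pair, was -0.44, 0.45, -0.74 and -0.89 in 2151R and -0.55 to 1.04 (median 0.51) in 2208L. The Cxcl9 groups overlapped, and the difference was -0.88 (SE 0.60, adjusted p 0.24).

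Of the 6 remaining genes, 4 were lower in 2151R and Ifi27 and Xaf1 did not pass. Rtp4, a protein that handles membrane receptors and binds viral RNA, was 0.090, 0.73, -0.086 and -0.093 in 2151R and 1.02 to 2.07 (median 1.45) in 2208L, a difference of -1.33 (SE 0.25, adjusted p 0.000738). Ifi44 was 0.080, 0.13, -0.49 and -0.51 in 2151R and 0.70 to 1.47 (median 1.09) in 2208L, a difference of -1.28 (SE 0.21, adjusted p 0.000198). Neither gene overlapped between the models. Lgals3bp, a secreted glycoprotein that binds galectins, differed by -1.05 and Ifi35 by -0.98. Ifi27 was 0, 0.29, 0.19 and 0.061 in 2151R and -0.60 to 0.52 in 2208L, a difference of 0.13 (SE 0.27, adjusted p 0.708).

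Of the 27 calls, 24 held whichever sample was left out, the others being Herc6, Oas3 and Parp12. In all the alternative fits as well, 17 of the 27 held. With the PBS tumours alone as the 2208L reference, 3 genes were higher and 17 lower. Bst2, Cxcl10, Ifit3 and Oas1a were among the calls lost there. With the 3day nt tumours alone, 4 were higher and 22 lower. With only the samples titled NT, nt or PBS in both models, 3 were higher and 19 lower. With the 3 samples of high muscle score left out, 3 genes were higher and 17 lower. Shares of all genes called in these reduced fits are not given here. Cell type markers also differed between these models. Macrophage markers were higher in 2151R in 8 of 10 genes (median difference 1.36), with a mean score of 0.79 to 1.17 in the samples of 2151R and -0.71 to 0.22 in those of 2208L. Markers of natural killer and cytotoxic cells were higher in 4 of 7 genes (1.06 to 1.58 in 2151R, -1.87 to 1.13 in 2208L), and those of T cells in 2 of 8, near the 26.1% of all genes, with overlapping scores (0.25 to 0.96 against -2.10 to 1.05). Neutrophil markers were lower in 4 of 6 genes (-1.85 to -0.23 against -0.28 to 2.30). The part of these cells in the differences of the interferon stimulated genes was not tested.

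**Figure D3:**
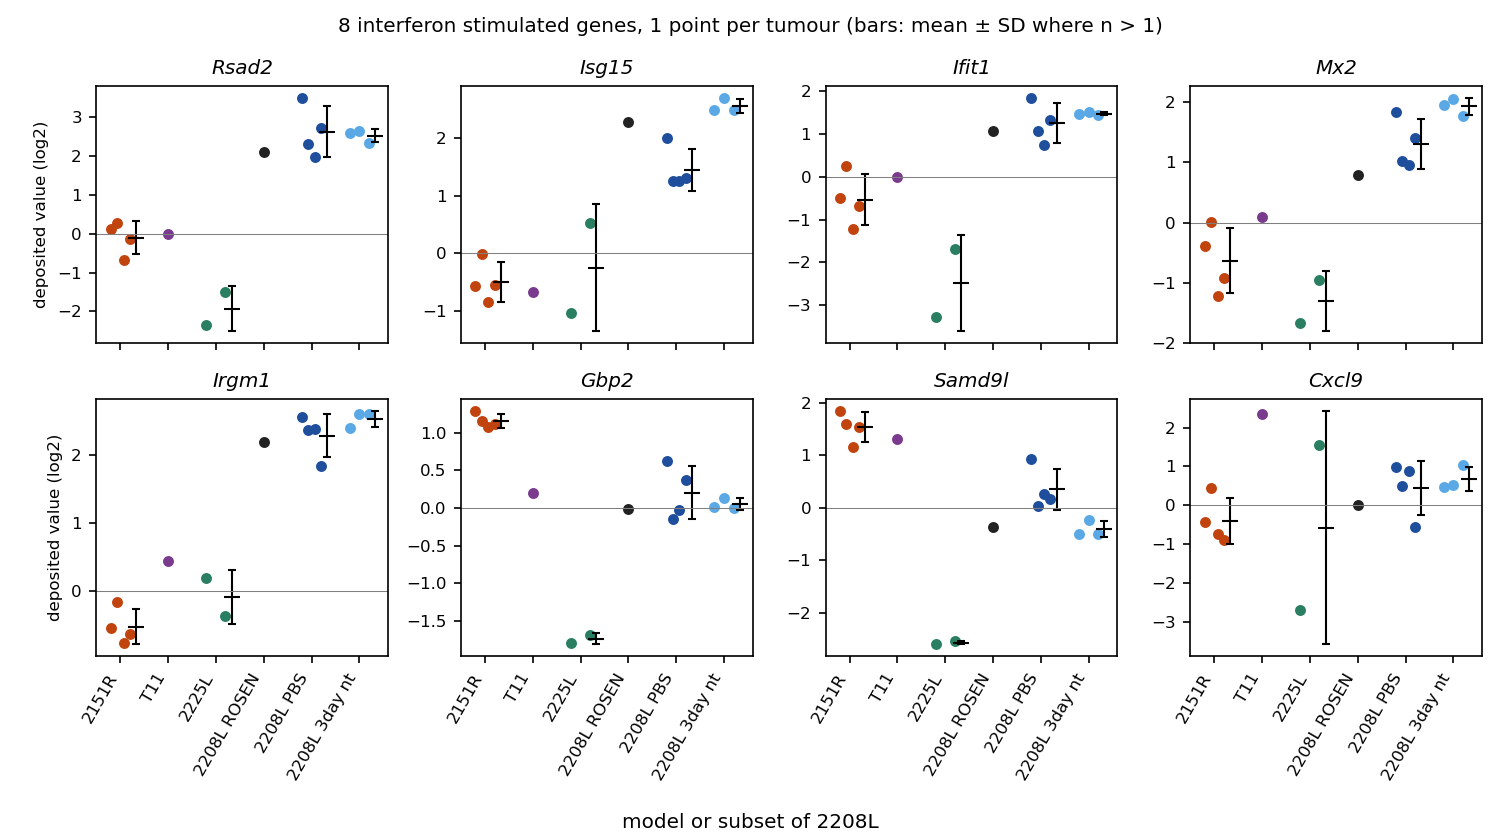
Deposited log2 values of 8 interferon stimulated genes by tumour (vertical axes), for the models 2151R, T11 and 2225L and the 3 subsets of 2208L (horizontal axis). Points are tumours and bars are the mean ± SD of groups with more than 1 tumour. Rsad2, Isg15, Ifit1, Mx2 and Irgm1 are higher in every tumour of 2208L than in any of 2151R, Gbp2 and Samd9l are higher in every tumour of 2151R, and Cxcl9 overlaps.

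The comparison of 2225L with 2208L gave the broadest difference. Of the 40 genes, 36 were lower in 2225L and 0 higher by limma with an adjusted p under 0.05, beside 17.3% of all genes lower and 15.6% higher. In each of these 36 both samples of 2225L lay below all 8 samples of 2208L (16% of all genes). All 40 differences were negative, with a median of -2.34 beside -0.044 for all genes. Both comparisons with 2208L use the same 8 samples, so their values are not independent of each other.

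The largest differences were at Rsad2, Ifit1 and Mx1. Rsad2 was -2.34 and -1.51 in replicates 1 and 2 of 2225L, a difference from 2208L of -4.46 (SE 0.36, adjusted p 1.72e-06). Ifit1 was -3.28 and -1.69, a difference of -3.79 (SE 0.40, adjusted p 1.68e-05). Mx1 was -2.72 and -1.92, a difference of -3.66 (SE 0.34, adjusted p 5.82e-06). Each of these values lay below the lowest sample of 2208L given above. All Ifit, Oas, Mx, Isg15 system, Parp and Dtx3l, Gbp and IRG genes were lower in 2225L. Their median differences ran from -3.22 in the Mx genes and -3.15 in the Ifit genes to -1.85 in the Gbp genes and -1.69 in the Parp and Dtx3l genes.

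The 4 genes that did not pass were Bst2, Cxcl9, Ifi35 and Ifi27. In the first 2, the samples of 2225L were far apart. Bst2 was -1.61 in replicate 1 and 1.15 in replicate 2, a difference from 2208L of -1.63 (SE 0.61, adjusted p 0.0575). Cxcl9 was -2.71 in replicate 1 and 1.55 in replicate 2, which lie below and above every sample of 2208L, and its difference was -1.05 (SE 0.77, adjusted p 0.321). Ifi35, which binds other interferon-induced proteins, was -0.20 and 0.42, a difference of -0.64, and Ifi27 was -0.93 and 0.38, a difference of -0.28.

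Replicate 1 of 2225L lay below replicate 2 in 36 of the 40 genes, with a median difference of -0.93, while over all genes it lay below in 53.5%, with a median of -0.079. The 2 also carry different library prefixes, so each was compared with samples of 2208L of its own prefix. Replicate 2 of 2225L lay below the ROSEN sample of 2208L in 39 of the 40 genes (45.7% of all genes). It lay at least 1 lower in 30 of the 40 (14.3% of all genes), and the median difference was -1.67. Cxcl9 was the exception, at 1.55 above. Replicate 1 lay below all 7 CP samples of 2208L in 40 of 40 genes (30.7% of all genes), with a median difference from their mean of -2.88. These are single samples, so the values carry no test. Of the 36 calls, 31 held whichever sample was left out, and Cxcl10, Dtx3l, Isg15, Oas2 and Tgtp2 were lost without replicate 1 of 2225L.

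Macrophage markers were lower in 2225L than in 2208L in 6 of 10 genes (scores of -2.04 and -0.85), and neutrophil markers in 5 of 6 (-1.81 and -2.10). No T cell marker of 8 passed, and the T cell score was -1.83 in replicate 1 and 1.13 in replicate 2 of 2225L. The part of these cells in the result was not tested.

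**Figure D4:**
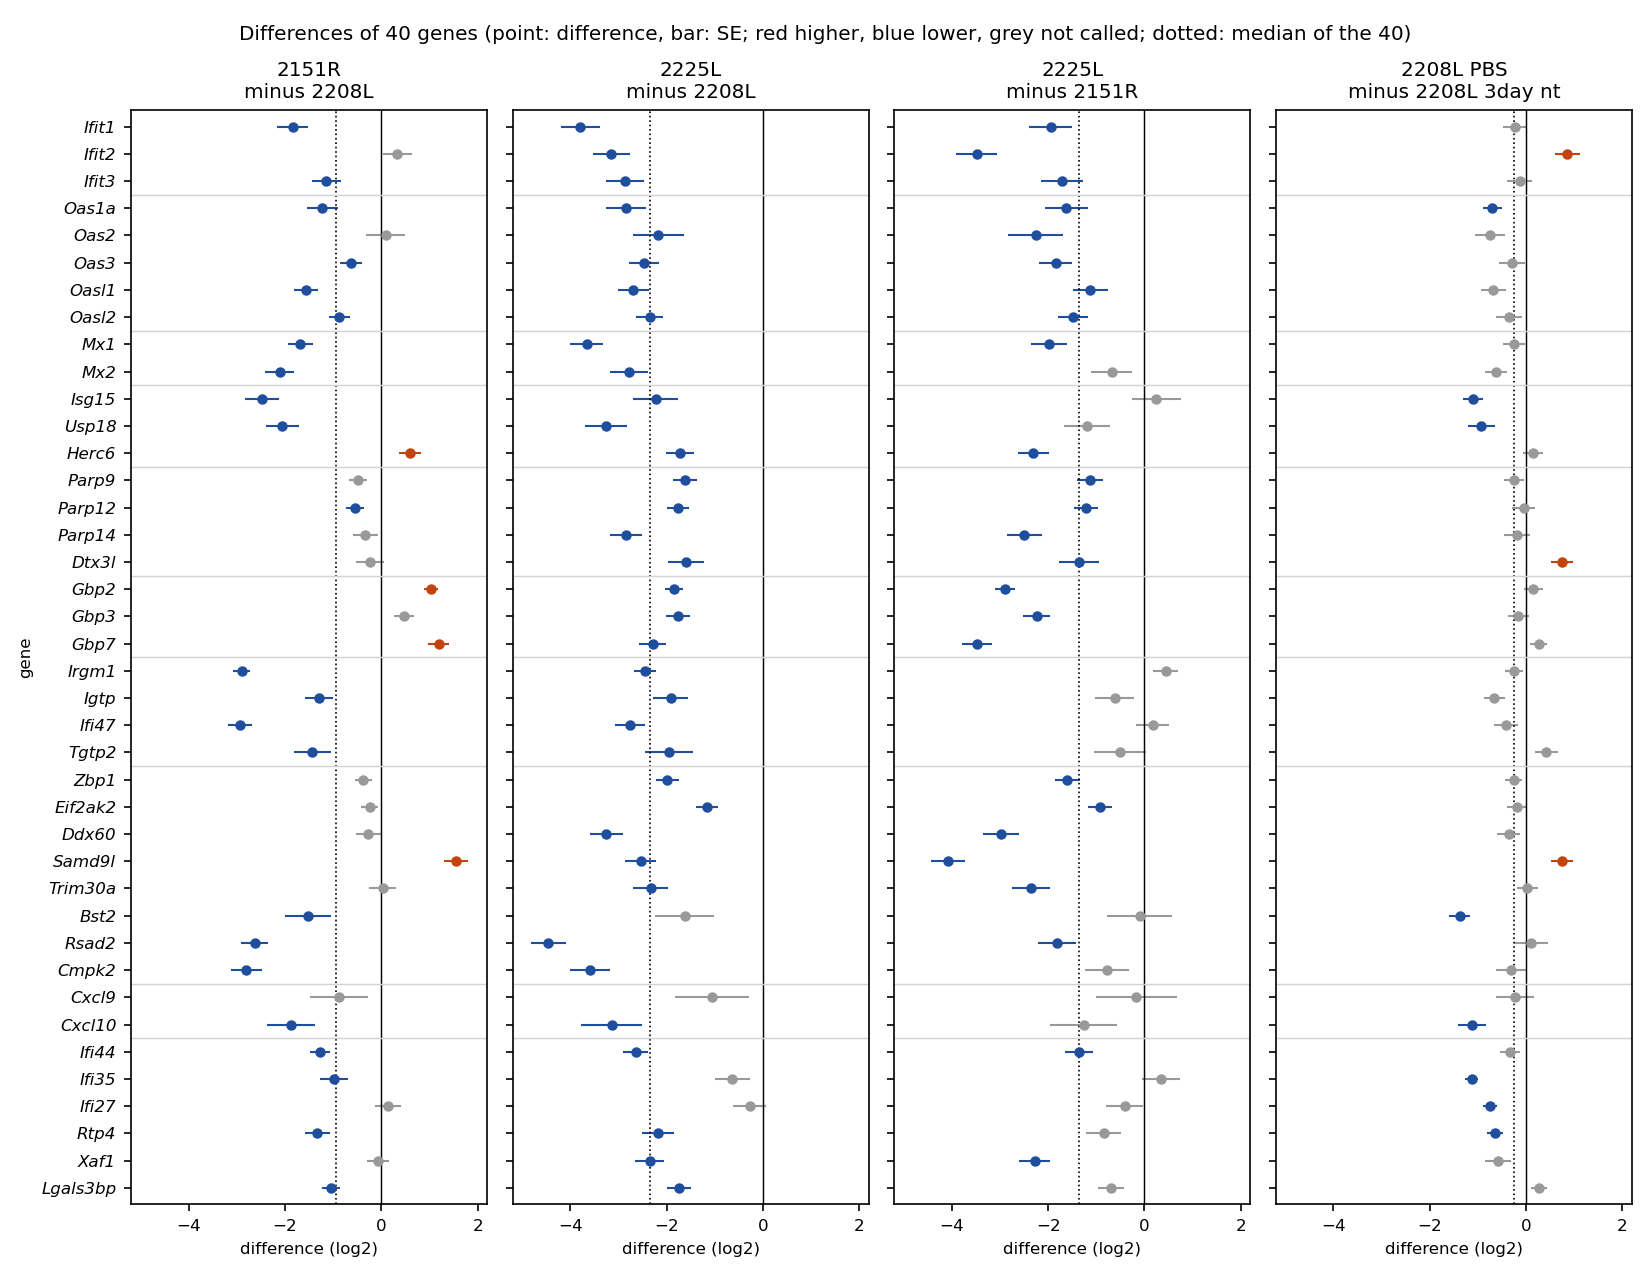
Differences of the 40 genes in the 4 tested comparisons (horizontal axes, log2), with points for the difference, bars for its SE and a dotted line for the median of the 40. Red points were called higher, blue lower and grey neither. The points of 2225L minus 2208L lie left of 0 in all 40 genes, those of 2151R minus 2208L lie on both sides, and those of PBS minus 3day nt run from -1.38 at Bst2 to 0.86 at Ifit2.

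Set against 2151R, 2225L was lower in most of the genes. Of the 40 genes, 25 were lower in 2225L and 0 were higher by limma (25.8% and 22.8% of all genes), and 27 lay below every sample of 2151R (33.4% of all genes). The median difference was -1.36. At an unadjusted p under 0.05 the count of higher genes was also 0. This comparison shares its samples with the previous ones.

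The largest differences were at Samd9l, Ifit2 and Gbp7. Samd9l was -2.59 and -2.53 in 2225L, a difference from 2151R of -4.09 (SE 0.35, adjusted p 8.64e-07). Ifit2 was -3.46 and -2.47, a difference of -3.49 (SE 0.42, adjusted p 1.83e-05). Gbp7 was -2.28 and -2.09, a difference of -3.48 (SE 0.31, adjusted p 1.34e-06). All 3 Gbp genes, all 5 Oas genes, all 3 Ifit genes and all 4 Parp and Dtx3l genes were lower in 2225L. None of the 4 IRG genes passed, and their differences ran from -0.62 at Igtp to 0.44 at Irgm1. The other genes that did not pass were Mx2, Isg15, Usp18, Bst2, Cmpk2, Cxcl9, Cxcl10, Ifi35, Ifi27, Rtp4 and Lgals3bp.

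Irgm1 was 0.19 and -0.37 in 2225L, and Ifi47 was -1.06 and -0.0067, so both overlapped with 2151R. The difference was 0.44 (SE 0.25, adjusted p 0.166) at Irgm1 and 0.17 (SE 0.34, adjusted p 0.71) at Ifi47. Isg15 was -1.04 and 0.53 in 2225L, on both sides of the 2151R samples, with a difference of 0.25 (SE 0.51, adjusted p 0.712). Ifi35 differed by 0.34 (SE 0.40, adjusted p 0.502). For these 4 genes the sign was opposite to that of most of the 40, and none of the differences passed the test.

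Of the 25 calls, 19 held whichever sample was left out, and Dtx3l, Ifit1, Ifit3, Oas1a, Oasl1 and Parp9 were lost without replicate 1 of 2225L. Without that sample 2225L is 1 tumour, which the fit assumes to vary like those of the other models. Cxcl9 was then called higher in 2225L, by 1.96 (adjusted p 0.0166), from a difference of -0.17 with both, and lower without replicate 2 (-2.30, adjusted p 0.00879). With sample weights that let noisier samples count less, 12 genes were lower (15.8% of all genes). Macrophage markers were lower in 2225L than in 2151R in 10 of 10 genes, with a median difference of -2.40, and their part in the result was not tested.

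Type I genes were then set against gamma-inducible genes. The type I class holds the 10 Ifit, Oas and Mx genes, and the gamma class holds the 3 Gbp genes, Igtp and Cxcl9. Between 2151R and 2208L, 8 of 10 type I genes were lower in 2151R (22.7% of all genes), with a median difference of -1.18. Of the 5 gamma genes, 2 were higher (26.1% of all genes) and 1, Igtp, was lower, with a median of 0.47. Counts among 5 genes are too small to be set apart from these shares. Between 2225L and 2208L, 10 of 10 type I genes and 4 of 5 gamma genes were lower (17.3% of all genes), with medians of -2.81 and -1.85. Between 2225L and 2151R, 9 of 10 and 3 of 5 were lower (25.8% of all genes), with medians of -1.78 and -2.24.

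For each tumour, the mean over a class was taken after subtracting each gene's mean over the 15 samples. The type I mean ran from -0.73 to 0.14 in 2151R and from 0.33 to 1.25 in 2208L, and was -2.58 and -1.71 in 2225L and -0.30 in T11. The gamma mean ran from 0.051 to 0.47 in 2151R and from -0.14 to 0.67 in 2208L, and was -2.27 and -0.90 in 2225L and 0.51 in T11. The models 2151R and 2208L were thus apart in the type I mean and overlapped in the gamma mean. The type I mean minus the gamma mean lay between 0.21 and 0.75 in the 8 tumours of 2208L and between -0.81 (T11) and -0.30 (replicate 1 of 2225L) in the other 7. The zero of these means is set by the centring over the 15 tumours, so only differences between tumours can be read, not the sign of a value. These class means carry no test, since the genes were chosen with earlier results known.

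The gamma class was not uniform. In 2151R the Gbp mean was 0.75 to 1.22 and the IRG mean was -1.46 to -0.67. The Gbp mean minus the IRG mean was 1.43 to 2.51 in the 4 tumours of 2151R, -1.20 to -0.41 in the 8 of 2208L, -0.33 and -0.92 in 2225L and 0.15 in T11. Every tumour of 2151R thus had a larger value than any tumour of the other models, and the sign is again set by the centring. With Irgm1, Ifi47 and Tgtp2, which also respond to interferon gamma, added to the gamma class, its median difference between 2151R and 2208L became -1.09, close to that of the type I class. Between 2225L and 2151R it became -0.56, which is nearer to 0 than the type I median.

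**Figure D5:**
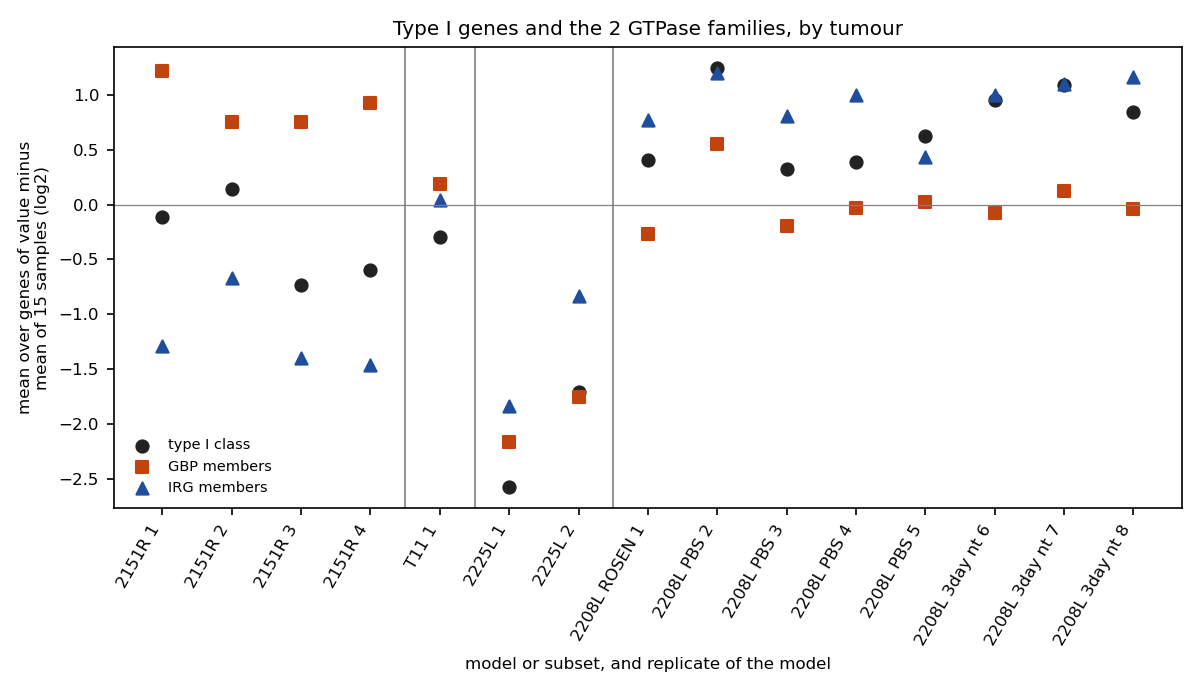
Mean centred log2 value of the type I genes (circles), Gbp genes (squares) and IRG genes (triangles) in each of the 15 tumours, with models separated by vertical lines. Squares minus triangles is 1.43 to 2.51 in the 4 tumours of 2151R and -1.20 to -0.41 in the 8 of 2208L, with the zero set by the centring over the 15 tumours. The symbols of 2225L lie between -2.58 and -0.84.

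T11 is a single tumour, so its values have no replicate check and no test. Against the mean of 2208L, 17 of the 40 genes were at least 1 lower in T11 and 2 at least 1 higher (15.6% and 22.9% of all genes), with a median difference of -0.84 beside 0.18 for all genes. T11 lay below every sample of 2208L in 25 genes (21.7% of all genes), above in 6 (35.8%) and inside in 9. Isg15, at -0.69 in T11, gave the lowest difference of the 40 (-2.66), and Rsad2, at -0.0014, gave -2.53. Cxcl9 was 2.36 in T11, the highest of all 15 samples, and 1.88 above the mean of 2208L. Samd9l was 1.31 in T11, which is 1.33 above the mean of 2208L and within the range of 2151R.

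Against 2151R, the differences of T11 ran from -1.30 to 2.76, with a median of 0.088 beside 0.092 for all genes. Oas3 was the 1 gene at least 1 lower (difference -1.30), and Cxcl9, Tgtp2 and Ifi47 were at least 1 higher (10.5% and 15% of all genes). Tgtp2 was 1.47 in T11, the highest of the 15 samples, beside -1.10, 0, -0.87 and -1.72 in 2151R. It lay below every sample of 2151R in 10 genes (30.8% of all genes) and above in 11 (39.9%). The GTPase families again split: all 3 Gbp genes of T11 lay below every sample of 2151R (median difference -0.87) and all 4 IRG genes above (1.05). Against 2225L, T11 was at least 1 higher in 30 of the 40 genes (30% of all genes) and at least 1 lower in 0 (21.3% of all genes). It was above both samples in 36 (45.5% of all genes) and below both in 1 (35%).

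Within 2208L, the tumours titled PBS were compared with those titled 3day nt, a label that is not explained. Of the 40, 3 were higher in PBS and 8 lower by limma, beside 17.4% and 16.5% of all genes. The median difference was -0.25, beside -0.047 for all genes. In 9 genes every PBS tumour lay below every 3day nt tumour (23.8% of all genes), and in 3 every one lay above (21%).

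The genes lower in PBS were Bst2, Ifi35, Cxcl10, Isg15, Usp18, Ifi27, Oas1a and Rtp4. Bst2 was 1.35, 0.61, 0.59 and 0.55 in the PBS tumours and 2.16, 2.19 and 2.11 in the 3day nt tumours, a difference of -1.38 (SE 0.21, adjusted p 0.00664). Ifi35 was 0.46, 0.13, 0.31 and 0.072 in PBS and 1.31, 1.44 and 1.36 in 3day nt, a difference of -1.13 (SE 0.13, adjusted p 0.00348). Cxcl10 was 1.49, 0.59, 0.28 and 0.75 in PBS and 1.76, 1.89 and 2.06 in 3day nt, a difference of -1.12 (SE 0.28, adjusted p 0.0247). The groups did not overlap in any of these. Isg15, at 1.998, 1.26, 1.25 and 1.30 in PBS, was 2.48, 2.70 and 2.49 in 3day nt, a difference of -1.11 (SE 0.21, adjusted p 0.0108). The 3day nt values of these genes lay close together, while replicate 2 stood above the other PBS tumours.

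The genes higher in PBS were Ifit2, Dtx3l and Samd9l. Ifit2 was 1.25, 0.48, 0.18 and 0.47 in PBS and -0.52, -0.030 and -0.25 in 3day nt, a difference of 0.86 (SE 0.27, adjusted p 0.0478). Samd9l was 0.93, 0.038, 0.26 and 0.18 in PBS and -0.49, -0.22 and -0.49 in 3day nt, a difference of 0.75 (SE 0.23, adjusted p 0.0442). Dtx3l differed by 0.74 (SE 0.23, adjusted p 0.0457). All 3 passed narrowly. Ifit2 and Samd9l, which in 2151R did not share the fall of Ifit1 and Rsad2, were also on the other side from most of the 40 here. Rsad2 differed by 0.11, Ifit1 by -0.22 and Mx1 by -0.25, and none of these passed.

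Of these 11 calls, 4 held whichever tumour was left out (Bst2, Ifi27, Ifi35 and Isg15). Without replicate 3, 6 or 8 the lower genes numbered 4 (10.3%, 7.1% and 5.89% of all genes). Without replicate 7 they numbered 5 (18% of all genes). The higher genes numbered 0 or 1 whichever of replicates 2 to 8 was left out (7.89% to 23.1% of all genes). Replicates 6 and 8, which are 2 of the 3 3day nt tumours, carry the high muscle scores. With these tumours left out, the 3day nt group is 1 tumour, which is assumed to vary like the PBS tumours. In that fit, and in the fit with the muscle score as a covariate, 0 of the 40 genes passed in either direction by limma. Without them, 0.44% of all genes were called higher and 0.127% lower, and with the covariate 0.486% and 0.203%. At an unadjusted p under 0.05, 6 of the 40 genes were lower without them and 5 with the covariate, and 0 were higher in both. The differences themselves were of like size for Bst2 (-1.41 without these tumours and -1.16 with the covariate), Ifi35 (-1.20 and -1.13) and Isg15 (-1.25 and -1.001), and 33 and 27 of the 40 differences were negative. Dendritic cell markers were lower in PBS in 5 of 7 genes (score -1.46 to 0.25 against 0.70 to 1.83), T cell markers in 3 of 8, and neutrophil markers were higher in 5 of 6. The part of these cells in the result was not tested.

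Other genes of the interferon pathway were described from a list of 101 that the table holds. Between 2151R and 2208L, 18 were higher and 29 lower in 2151R (26.1% and 22.7% of all genes), with a median difference of -0.10. Between 2225L and 2208L, 2 were higher and 68 lower in 2225L (15.6% and 17.3% of all genes), with a median of -1.37. Between 2225L and 2151R, 7 were higher and 59 lower (22.8% and 25.8% of all genes), and between PBS and 3day nt, 10 were higher and 22 lower in PBS (17.4% and 16.5%). In both comparisons of 2225L most of the list was lower in 2225L.

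Among the receptors, Ifnlr1, which binds type III interferons and is found mainly on epithelial cells, differed by -6.86 (SE 0.25) between 2151R and 2208L. It was 6.22 higher in 2225L than in 2151R and did not pass between 2225L and 2208L (-0.63, adjusted p 0.156). Ifnar1, a chain of the type I receptor, differed by 0.43 (SE 0.15) between 2151R and 2208L. Irf7, the transcription factor that drives further interferon production, differed by -1.53 (SE 0.30), and the kinase Jak1 by 1.13 (SE 0.18). Of 15 sensors and adaptors, 3 rose and 3 fell in 2151R against 2208L (26.1% and 22.7% of all genes), among which Tlr7, a receptor of RNA, rose by 1.90 and Tlr3, another, fell by 1.88. Tgtp1, the copy of Tgtp2, fell by 4.86, and Cxcl11, a chemokine of the Cxcl9 and Cxcl10 family, fell by 2.74. Stat2, named here for its role in the pathway after its values were seen, differed by -0.18 (adjusted p 0.495) between 2151R and 2208L and did not pass. Between 2225L and 2208L, Stat2 fell by 1.49 and Irf7 by 2.46.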

How the data were processed

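Per the labels' protocols, total RNA from each tumour was isolated with RNeasy columns, and TruSeq libraries were prepared from its poly(A) fraction. The values are log2 expression of 17271 genes in 15 samples, in a single table deposited by the authors. That they are log2 and centred on a median is read from words in the table's own name, other parts of which are not explained. A median of exactly 0 over the 15 samples is found for 6.51% of the genes, and the reference samples are unknown. STAR, Salmon and mm10 are named in the submitters' processing notes, without a role. Normalization between samples and the offset before the logarithm are not given in the sources used here. Values ran from -14.55 to 13.11. In 727 genes some samples share an exact value, and 0 of the 40 genes are among them. Without counts, the depth per sample is unknown and only the spread between samples gives the precision.

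The model given in each title set the groups, and replicates were numbered in accession order. The series text drops a digit from 2151R and 2225L. All genes were tested on the deposited values with limma 3.58.1, run in R 4.3.3 as lmFit with eBayes and no trend, at a Benjamini-Hochberg adjusted p under 0.05. A single fit took all 15 samples, with a mean per model and a shared spread. PBS and 3day nt were compared in a fit of those 7 samples. The fits were tested on simulated data. Motifs were searched in RefSeq promoter windows of GRCm38.p6, the build that mm10 stands for, and 9 of the 40 genes had no window.

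The members, the lists and the tests were chosen with earlier results of these data known. Per-sample values are given for the 2 members of each family or role that differed most between 2151R and 2208L, the 3 largest in each other comparison, and members of opposite sign to the median, and pathway genes are the 2 largest called of each list. A marker score is the mean of a list's genes after each was centred on its average of the 15 samples. Alternatives were other scalings, sample weights, a trend, left-out genes or samples, other references, library prefix or muscle score as covariates, a minimum difference, a wider gamma class and a stricter motif.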

Additional observations from a re-analysis of the deposited data

Results flagged for a closer look

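A sample stood apart from the rest of its group, by Dixon's criterion at the 95% level, in 7 of 126 groups of 4 to 8 samples. The groups cover the 40 genes and the type I and gamma class means. Chance gives about 1 in 20, or 6.3 such groups. The groups of 2208L and of its PBS tumours share samples, so the 7 are not all separate cases. Of the tumours of 2208L titled PBS, replicate 2 was high for Isg15 (1.9984, the others 1.2479 to 1.2996), Bst2 (1.3514, the others 0.5492 to 0.6094) and Dtx3l (1.1131, the others 0.4647 to 0.5336). Ifi47 was low in replicate 5 of 2208L (1.3853), both among the PBS tumours (the others 2.152 to 2.2708) and among all 8 tumours of 2208L (the others up to 2.606). In 2151R, Ifi47 was high in replicate 2 (-0.2861, the others -0.8925 to -0.8066), and Ifit2 was high in replicate 1 (0.9023, the others 0.386 to 0.3998).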

How the results depend on the processing

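No paired analysis was possible because no numbers shared between groups stand in the sample titles. Over single genes and alternatives other than leaving out a sample, 1374 values stayed as they were, 25 gained a call and 77 lost it. Those that stayed include genes not called in either fit. With a sample left out, 1309 stayed as they were, 21 gained a call, 69 lost it and 1 reversed.

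Between PBS and 3day nt, quantile normalization left 3 lower genes (18.7% of all genes). A minimum difference of 1 left 0 higher and 4 lower (6.98% and 5.8% of all genes). The muscle score as a covariate gave 0 and 0 and a gamma median of 0.147, and leaving out the tumours of high muscle score, chosen after seeing the data, gave 0 and 0. With a sample left out, 0 to 1 were higher and 4 to 12 lower, and the gamma median was -0.345 to 0.098. Between 2225L and 2151R, sample weights left 12 lower genes (15.8% of all genes). With a sample left out, 0 to 1 were higher there and the type I median was -2.38 to -1.36. Between 2225L and 2208L, the type I median was then -3.39 to -2.42 and the gamma median -2.38 to -1.29, where the ends come from leaving out either sample of 2225L. Cxcl9 between 2225L and 2151R ran from -2.30 to 1.96. The wider gamma class gave -1.09 between 2151R and 2208L, where the mean over members gave 0.106, and -0.56 between 2225L and 2151R. With samples centred on their medians, T11 minus 2151R became -0.00423. The causes were not tested. No counts are given, so what depth limits is unknown, and 2225L rests on 2 samples and T11 on 1.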
